A study of Mus musculus with 18 samples.

Results

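The transcripts of 9 cytokine genes were followed in donor T cells recovered from mouse spleen after haematopoietic stem cell transplantation. They are Ifng (interferon gamma), Tnf (tumour necrosis factor), Il2, Il3, Il10, Il21, Csf1 (macrophage colony-stimulating factor), Csf2 (granulocyte-macrophage colony-stimulating factor, GM-CSF) and Lif (leukaemia inhibitory factor, of the IL-6 family), a set chosen as effector products of alloreactive T cells. They were taken by gene symbol, 9 of the 46073 genes in the count table, and every one of the 9 passed the filter on low counts that left 18447 genes for testing. Total RNA was sequenced with ribosomal RNA depletion from live CD3+ CD45.2+ cells, in 12 libraries of 4 groups with 3 libraries each: allogeneic WT, allogeneic KO, syngeneic WT and syngeneic KO. KO cells are labelled as Wapl KO; Wapl is the factor that releases the cohesin ring from chromosomes. The Cre line and the deleted part of the gene are not given in the sources used here. Donors were 8 to 12 week old female C57BL/6 mice (CD45.2), the sex of the KO donors not being listed separately, and recipients were female mice of the same ages carrying CD45.1. Syngeneic recipients (B6.SJL-Ptprca Pepcb/BoyJ) received 9.5 Gy and 8500000 donor T cells. Allogeneic recipients (CByJ.SJL(B6)-Ptprca/J, also named BALB/c in the labels) received 8 Gy and 1000000 donor T cells. The syngeneic KO libraries also carry the allogeneic recipients' strain in their cell type field, and they were grouped here by their transplant type. All recipients received 5000000 T cell depleted marrow cells, and the T cells were taken 7 days later, each library from a pool of 2 to 4 mice, with the pools described as independent. Radiation dose and T cell number therefore went with transplant type and cannot be told apart from it.

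As background, a donor T cell that meets foreign histocompatibility molecules is activated through its antigen receptor. The calcium-dependent factor NFAT, together with AP-1 and NF-kappa B, then turns on cytokine genes. IFN gamma and TNF drive inflammation and tissue damage in graft-versus-host disease, IL-2 and IL-21 support T cells themselves, the colony-stimulating factors act on myeloid cells, and IL-10 restrains inflammation. Many of these messages carry AU-rich elements, repeats of AUUUA in the 3′ untranslated region to which decay factors such as ZFP36 bind, so that their levels also depend on how fast they are destroyed.

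Library totals ran from 45965659 to 89007100 counts. Genes of ribosomal RNA took 8.19 to 17.8% of the counts in allogeneic WT, 20.1 to 23.1% in syngeneic WT, 16 to 17.9% in allogeneic KO and 23.8 to 32% in syngeneic KO. Wapl itself was at 188 ± 20.8 CPM (counts scaled to each library's TMM-adjusted total; mean ± SD, n = 3 in every group) in syngeneic WT and 135 ± 6.29 in syngeneic KO, and after allogeneic transplant at 161 ± 6.8 in WT and 140 ± 14.6 in KO. The fall was called after syngeneic transplant (log2 fold change −0.48 ± 0.11, adjusted p = 0.0368) and not after allogeneic transplant (−0.20 ± 0.11, adjusted p = 0.963), so transcripts of the targeted gene remained in KO libraries. Transcripts of Y-linked genes summed to 31.4 to 138 CPM in the KO libraries and to 0.733 to 1.75 CPM in the WT libraries, although the labels name female mice, so the sex of the donor cells went with genotype and cannot be told apart from it. On the second principal component of all genes, syngeneic KO replicate 1 stood apart, and several results are also given without it. Markers of other cells moved with the groups. Summed erythroid markers were at 2340 to 5490 CPM in syngeneic WT and at 27.1 to 170 CPM in the other 9 libraries, and 14 myeloid markers summed to 232 to 677 CPM in syngeneic WT and to 24 to 85.8 CPM in syngeneic KO. All 10 markers of the T cell receptor complex were detected in every library.

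Levels between genes are compared per kilobase of exon. On this scale the 9 transcripts summed to 26.2 ± 2.35 CPM per kb in syngeneic WT and to 83.0 ± 3.79 in allogeneic WT. In syngeneic KO the sum was 40.3 ± 20.7, and the lowest library was at 22.5 and the highest at 63.1. Allogeneic KO reached 79.3 ± 22.9. Tnf was the most abundant of the 9 after syngeneic transplant, at 13.9 ± 2.12 CPM per kb in WT and 20.8 ± 12.4 in KO, and made up 52.9% and 51.1% of the sum. Ifng came next, with 28.4% of the sum in both genotypes. After allogeneic transplant the order changed. Ifng led at 30 ± 2.4 CPM per kb in WT and 37.5 ± 16.0 in KO. Csf1 followed at 27.6 ± 5.09 in WT and 19.6 ± 2.83 in KO, and in WT the gap to Ifng was smaller than the SD of Csf1. Csf1 had supplied 3.37% of the sum in syngeneic WT and supplied 33.2% in allogeneic WT. The share of Tnf went from 52.9% to 9.54% between the same groups. Among allogeneic WT libraries, Tnf and Csf2 were the next pair, at 7.89 ± 1.26 and 6.95 ± 1.1 CPM per kb, followed by Il10 and Lif at 4.15 ± 1.04 and 4.01 ± 0.731; within each pair the levels differed by less than their spread. Il2 was the least abundant of the 9 in both allogeneic groups, at 0.234 CPM per kb in WT and 0.183 in KO, and Il3 in both syngeneic groups, at 0.139 and 0.195. In these bulk samples, fewer cells making a transcript and less of it per cell cannot be told apart.

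**Figure D1:**
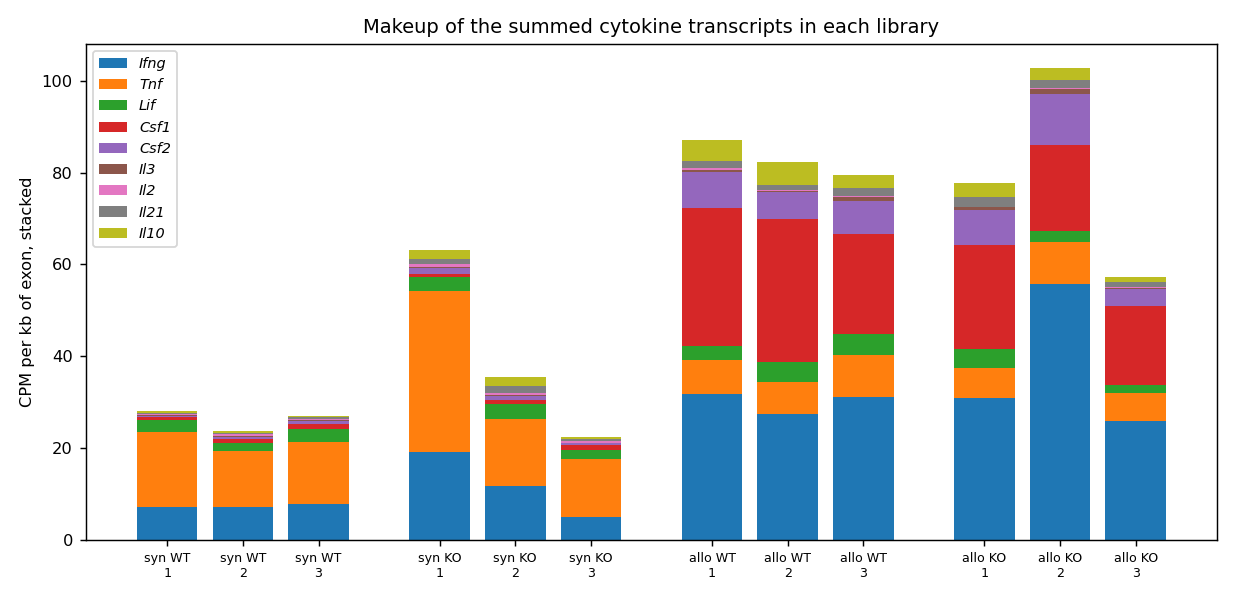
Stacked CPM per kilobase of exon of the 9 cytokine transcripts (vertical axis) in each of the 12 libraries (horizontal axis, grouped by transplant type and genotype). The syngeneic WT bars sum to 23.6 to 28.1 and are mostly Tnf and Ifng, while the allogeneic WT bars sum to 79.6 to 87.1 and are mostly Ifng and Csf1; the syngeneic KO bars run from 22.5 to 63.1.

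The fits below are edgeR quasi-likelihood tests over all 18447 genes with Benjamini-Hochberg adjustment. A gene is called when its adjusted p is under 0.05, and fold changes are given as log2 ± SE. Between allogeneic and syngeneic WT libraries, 5 of the 9 cytokines rose (Ifng, Il10, Il21, Csf1 and Csf2) and none fell. Over all genes tested, 16.4% were called higher and 15.9% lower in this comparison. DESeq2 called the same number higher and 1 lower, and 8 of the 9 had an unadjusted p under 0.05, beside 43.2% of all genes. Groups did not overlap for 8 of the 9, 7 of them higher and 1 lower in allogeneic libraries, against 55.7% of all genes, 28.2% in the higher and 27.5% in the lower direction. The median log2 fold change was 2.02 for the 9 and −0.03 for all genes. Between allogeneic and syngeneic KO libraries, 3 rose (Ifng, Csf1 and Csf2) and 2 fell (Tnf and Il2), beside 13.2% and 11.2% of all genes called. The median was 0.69, against −0.02 for all genes. Without syngeneic KO replicate 1 the counts were 3 and 1, Il2 being lost, and the median was 1.03. Comparing KO with WT after syngeneic transplant, Il10 and Il21 rose and none fell, where 0.743% of all genes were called higher and 2.63% lower. The median was 0.58, against 0.06 for all genes, and 2 of the 9 had an unadjusted p under 0.05, beside 14% of all genes. When syngeneic KO replicate 1 was left out neither call held, and the median of the 9 was 0.25. After allogeneic transplant none of the 9 was called between KO and WT by edgeR or by DESeq2, and 0.0542% of all genes were called, 0.0434% higher and 0.0108% lower. Of the 9, 1 had an unadjusted p under 0.05, beside 4.18% of all genes. All 9 overlapped between the groups, whereas 7.66% of all genes did not, 3.29% being higher and 4.37% lower. The comparisons share libraries, with syngeneic WT entering both the allogeneic-to-syngeneic comparison in WT and the syngeneic comparison of genotypes, so their values are not independent of each other.

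**Figure D2:**
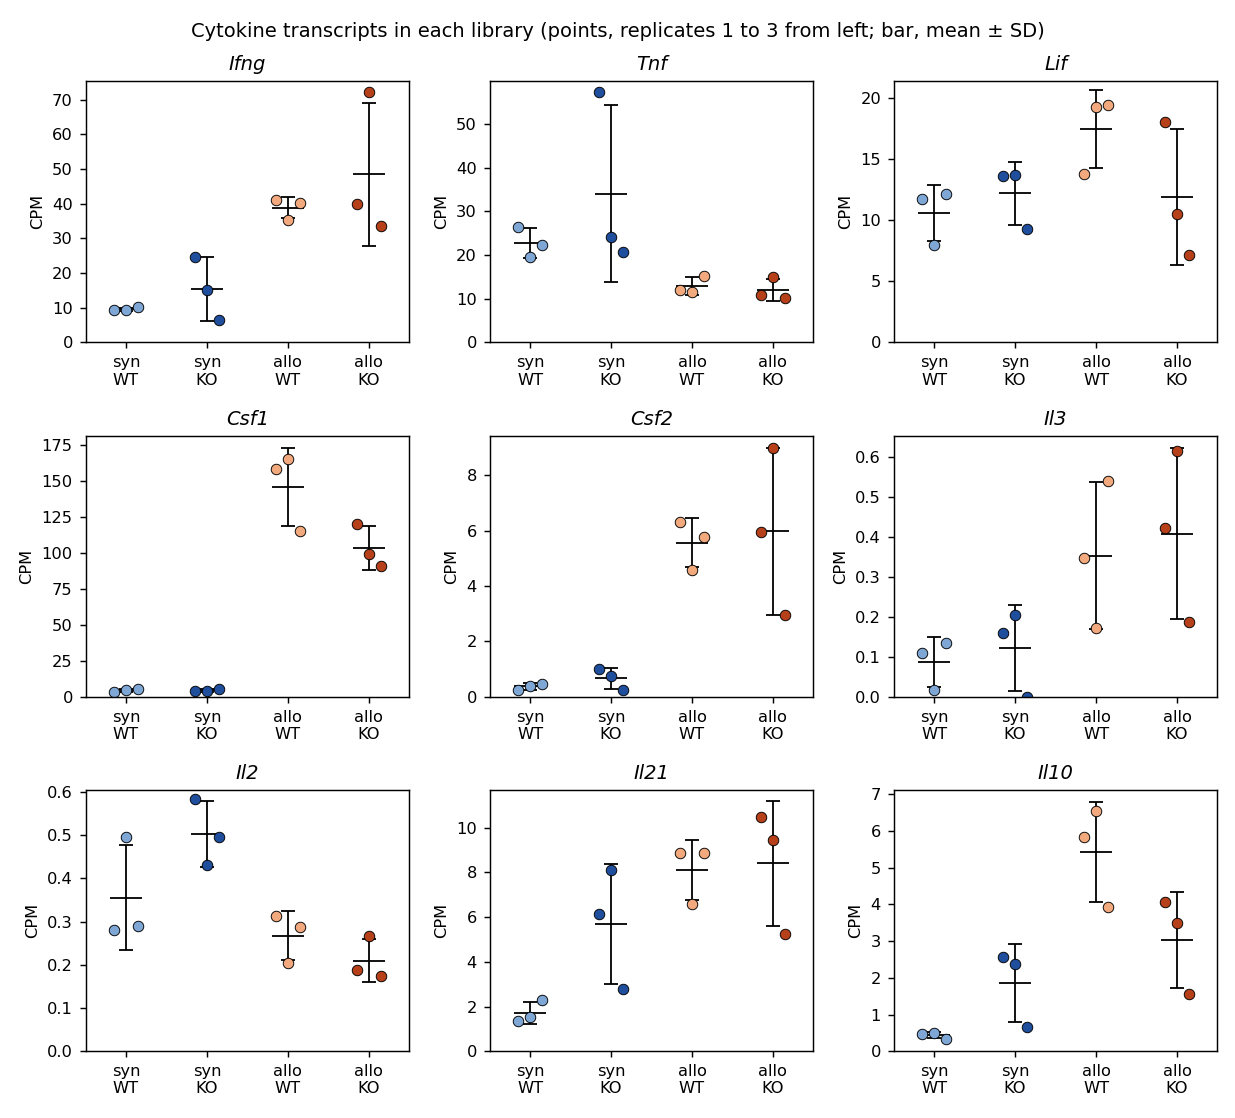
CPM (vertical axis, linear, from 0) of each cytokine in each library, with points for replicates 1 to 3 from left to right in each group and a bar for the mean ± SD. Csf1 lies between 3.45 and 5.66 in the 6 syngeneic libraries and between 90.8 and 165 in the 6 allogeneic ones, whereas Tnf is at 10.1 to 15.3 in allogeneic and at 19.6 to 57.4 in syngeneic libraries.

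Ifng (ENSMUSG00000055170, GRCm38 chromosome 10, 118441046 to 118445892, plus strand) encodes the cytokine that induces MHC and antiviral genes in its target cells. It was at 9.29, 9.36 and 10.1 CPM in syngeneic WT and at 41.2, 35.4 and 40.1 CPM in allogeneic WT. The KO libraries held 24.7, 15.2 and 6.35 CPM after syngeneic and 39.9, 72.1 and 33.6 CPM after allogeneic transplant. The WT libraries were tight and did not overlap between transplant types; the KO libraries spread more widely, also without overlap between transplant types, with syngeneic KO replicate 3 below and replicates 1 and 2 above every syngeneic WT library. Ifng rose by 2.02 ± 0.41 from syngeneic to allogeneic in WT (4.06-fold, adjusted p = 0.00333) and by 1.65 ± 0.40 in KO (3.15-fold, adjusted p = 0.0122). The KO call was lost when the 2 groups were fitted alone (1.66 ± 0.49, adjusted p = 0.0658). Between genotypes it was not called, at 0.69 ± 0.40 after syngeneic transplant (95% interval −0.2 to 1.57, adjusted p = 0.469, and 0.14 without syngeneic KO replicate 1) and 0.32 ± 0.39 after allogeneic transplant. Without allogeneic KO replicate 2 the latter value was −0.09. Its exons share 336 bases with the unnamed gene model Gm49751 on the same strand, so reads there cannot be told apart between them.

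Tnf (ENSMUSG00000024401, chromosome 17, 35199381 to 35202007, minus strand) encodes an inflammatory cytokine made as a membrane protein and cut free by ADAM17. The syngeneic libraries held 26.5, 19.6 and 22.3 CPM in WT and 57.4, 24.1 and 20.6 CPM in KO. The allogeneic libraries held 12, 11.5 and 15.3 CPM in WT and 10.9, 14.9 and 10.1 CPM in KO. Every allogeneic library was thus below every syngeneic library, the opposite direction to Ifng, and syngeneic KO replicate 1 was the highest of the 12. In KO, Tnf fell by 1.51 on the log2 scale (SE 0.33, 2.84-fold lower, adjusted p = 0.00548). Without syngeneic KO replicate 1 the log2 fold change was −0.86 and was still called (adjusted p = 0.00672). In WT the difference was −0.82 ± 0.32 and missed the threshold (adjusted p = 0.0719), although DESeq2 called it (adjusted p = 0.039) and so did edgeR without syngeneic KO replicate 1 (adjusted p = 0.00417) or replicate 3 (adjusted p = 0.0407), with the 2 groups fitted alone (0.00167) and with a replicate block within them (0.00634). Between genotypes it was not called after syngeneic transplant (0.58 ± 0.32, and −0.06 without syngeneic KO replicate 1) or after allogeneic transplant (−0.11 ± 0.32). Myeloid cells also make TNF: summed myeloid markers were at 232 to 677 CPM in syngeneic WT, 343 to 537 CPM in allogeneic WT, 24 to 85.8 CPM in syngeneic KO and 75.5 to 345 CPM in allogeneic KO, and their part in the Tnf result was not tested.

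The promoters of Ifng and Tnf are shown because these 2 inflammatory genes differed in opposite directions between transplant types. Each holds 250 bases before and 50 after the start in RefSeq (GRCm38.p6), chr10:118440796-118441095 on the plus strand and chr17:35201958-35202257 on the minus strand. Capitals mark GGAAA, the core that NFAT binds, written TTTCC where it lies on the other strand.
Ifng promoter: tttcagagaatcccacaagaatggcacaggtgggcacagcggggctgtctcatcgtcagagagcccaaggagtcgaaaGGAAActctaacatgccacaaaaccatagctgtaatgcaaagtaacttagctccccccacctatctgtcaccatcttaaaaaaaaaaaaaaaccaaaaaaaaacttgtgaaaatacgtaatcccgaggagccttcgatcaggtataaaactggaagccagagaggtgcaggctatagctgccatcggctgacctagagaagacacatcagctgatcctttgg
Tnf promoter: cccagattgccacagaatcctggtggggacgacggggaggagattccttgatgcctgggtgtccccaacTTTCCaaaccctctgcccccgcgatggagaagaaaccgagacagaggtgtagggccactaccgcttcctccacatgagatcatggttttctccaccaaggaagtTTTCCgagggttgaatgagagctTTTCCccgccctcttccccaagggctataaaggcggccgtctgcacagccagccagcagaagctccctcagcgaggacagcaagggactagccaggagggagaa
The Ifng window holds 1 such core, at 172 bases before the start, and the Tnf window holds 3, at 181, 77 and 54 bases before it. At least 1 core stands in 61.3% of 27025 promoters of the same length, and 3 or more in 9.55%. Both windows also hold TATAAA, at 30 and 29 bases before the start, as do 14.2% of all.

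The AU-rich stretches of 5 messages are shown because Tnf and Il2, which fell from syngeneic to allogeneic KO libraries (Il2 on few counts, with a call lost in several settings), share dense repeats with Csf2 and Ifng, which rose, while Csf1, which rose most, has few. They are the 29 bases of each 3′ untranslated region with the most ATTTA, the DNA spelling of AUUUA, taken from GENCODE M21 transcripts (GRCm38) and written as DNA with ATTTA in capitals.
Tnf: ttATTTAttATTTATTTAttATTTATTTA
Csf2: ttttaaatATTTATTTATTTATTTATTTA
Il2: tATTTATTTAaatATTTAactttaATTTA
Ifng: acctATTTAttaatATTTAaaactATTTA
Csf1: ttatataaggtcATTTAaatatctATTTA
Over the whole region, ATTTA occurs 9 times in the 317 bases of Csf2, a number that none of 1800 other regions within 20% of its length reached. Tnf holds 8 in 764 bases, reached by 0.386% of regions of like length, and Il2 holds 7 in 581 bases, reached by 0.371%. Ifng and Il10 hold 6 each, reached by 1.25% and 1.98%. Il3 with 1 in 101 bases and Il21 with 9 in 2578 bases lie between, reached by 14.3% and 15.1%. The 4 of Csf1 in 2111 bases were reached by 48.9% of like regions, and the 7 of Lif in 3180 bases by 38.7%. The longer element TTATTTATT occurs 5 times in Tnf, 4 times in Csf2, 2 times in Lif and 1 time each in Il2 and Il21, and in 7.18% of 20609 regions. Genes with dense elements were therefore found among those that rose and those that fell between transplant types.

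**Figure D3:**
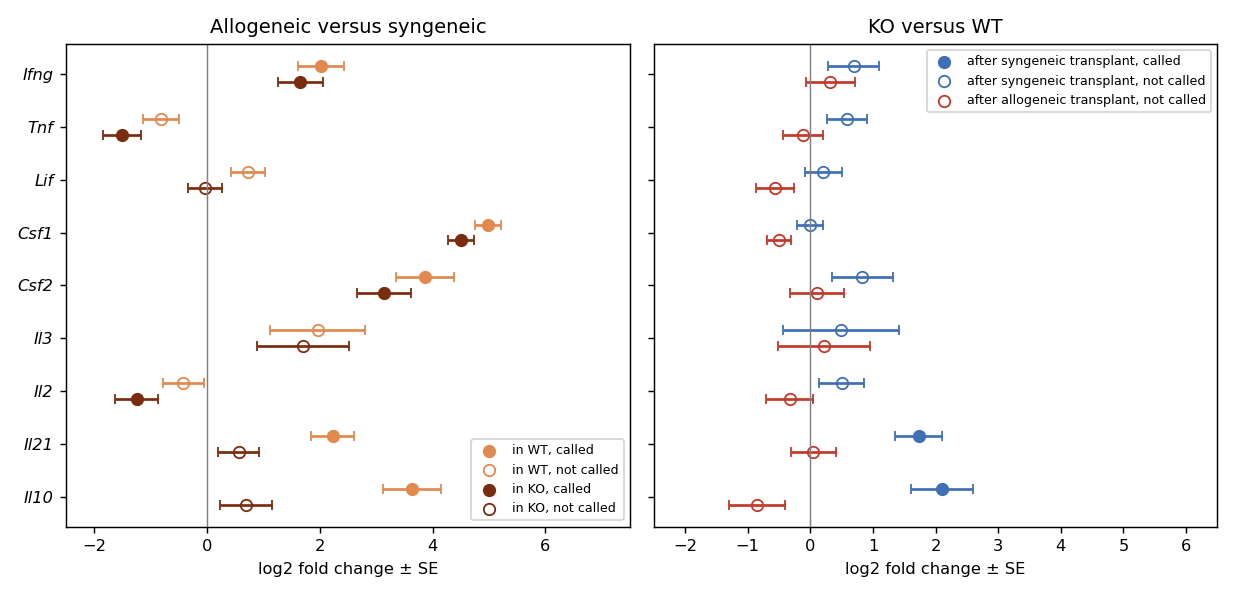
Log2 fold changes (horizontal axis, points with SE bars) of the 9 cytokines between allogeneic and syngeneic libraries (left, in WT and KO) and between KO and WT (right, after each transplant type); filled points are called. On the left Csf1 and Csf2 stand farthest right and Tnf lies left of 0 in both genotypes; on the right Il10 (2.10) and Il21 (1.73) after syngeneic transplant are the filled points.

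The colony-stimulating factors gave the largest differences between transplant types. Csf1 (ENSMUSG00000014599, chromosome 3, 107741048 to 107760469, minus strand) encodes the growth factor of monocytes and macrophages. Syngeneic libraries held 3.45, 4.76 and 5.66 CPM in WT and 3.92, 4.3 and 5.53 CPM in KO. Allogeneic libraries held 158, 165 and 115 CPM in WT and 120, 99.5 and 90.8 CPM in KO. No allogeneic library came near a syngeneic one, and the spread within groups was small beside the gap. The rise was 4.98 ± 0.23 in WT (31.6-fold, adjusted p = 2.42e-08) and 4.50 ± 0.23 in KO (22.6-fold, adjusted p = 7.84e-08). Wapl loss made no detectable difference after syngeneic transplant, where the estimate was −0.01 ± 0.21 with a 95% interval of −0.46 to 0.44. After allogeneic transplant KO libraries were at 104 ± 15.1 CPM against 146 ± 27.5 in WT, a difference of −0.50 ± 0.19 that had an unadjusted p of 0.023 and was not called (adjusted p = 0.963).

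The promoters of Csf1 and Il21 are shown as those of the gene with the largest difference between transplant types and of 1 of the 2 genes called between genotypes. They were read from the same RefSeq table, chr3:107760420-107760719 and chr3:37232587-37232886, both on the minus strand and marked as before.
Csf1 promoter: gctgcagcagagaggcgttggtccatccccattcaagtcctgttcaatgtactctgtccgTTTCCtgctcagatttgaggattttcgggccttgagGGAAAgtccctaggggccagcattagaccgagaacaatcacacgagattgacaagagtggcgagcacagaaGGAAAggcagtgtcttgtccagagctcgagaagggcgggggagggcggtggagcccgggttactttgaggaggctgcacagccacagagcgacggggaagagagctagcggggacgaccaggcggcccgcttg
Il21 promoter: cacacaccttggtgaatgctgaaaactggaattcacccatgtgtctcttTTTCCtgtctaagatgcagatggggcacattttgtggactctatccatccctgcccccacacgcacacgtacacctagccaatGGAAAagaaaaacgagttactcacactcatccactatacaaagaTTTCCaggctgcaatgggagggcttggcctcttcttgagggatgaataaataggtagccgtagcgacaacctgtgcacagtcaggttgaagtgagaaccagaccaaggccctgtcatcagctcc
Each holds 3 of the cores, the same number as Tnf, which differed in the other direction from Csf1. Promoters of 8 of the 9 genes were matched. Across these 8, the count was 1 in Ifng, Il3 and Lif, 2 in Il2 and 3 in Tnf, Il21, Csf1 and Csf2. The Csf2 window is unlike the others: its RefSeq start lies 232 bases upstream of the GENCODE start, so the window lies outside the gene coordinates given below, and 1 of its 3 cores is 24 bases after that start. The AP-1 motif TGANTCA, searched on both strands, stood in the Lif window alone and in 7.93% of all windows. These matches describe the letters of the windows and show no binding.

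Csf2 (ENSMUSG00000018916, chromosome 11, 54247271 to 54249667, minus strand) encodes GM-CSF, which activates neutrophils, macrophages and dendritic cells. It was at 0.249, 0.411 and 0.477 CPM in syngeneic WT and at 6.32, 4.59 and 5.76 CPM in allogeneic WT. KO libraries held 1, 0.756 and 0.258 CPM after syngeneic and 5.96, 8.99 and 2.97 CPM after allogeneic transplant. All 6 allogeneic libraries were above all 6 syngeneic ones, with the lowest allogeneic value again in KO replicate 3. Csf2 rose by 3.87 ± 0.51 in WT (14.6-fold, adjusted p = 9.34e-05) and by 3.14 ± 0.48 in KO (8.84-fold, adjusted p = 0.000468). Between genotypes the differences were 0.83 ± 0.49 after syngeneic (0.4 without syngeneic KO replicate 1) and 0.10 ± 0.43 after allogeneic transplant, neither called, the latter turning to −0.34 without allogeneic KO replicate 2. The gene shares 96 exon bases with Gm12223 on the opposite strand. Whether the counting used strand is not given in the sources used here, so reads of the 2 cannot be told apart there.

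Il3 (ENSMUSG00000018914, chromosome 11, 54265303 to 54267277, minus strand), whose product acts on mast cells, basophils and early blood progenitors, lies 15.6 kb from Csf2. It was near the limit of detection, with 7, 1 and 8 counts in syngeneic WT and 8, 12 and 0 in syngeneic KO, where 3 counts in the library without any correspond to 0.0595 CPM. The allogeneic libraries had 20, 17 and 32 counts in WT and 18, 37 and 13 in KO. In CPM the WT groups did not overlap (0.0171 to 0.136 against 0.173 to 0.541), while in KO the lowest allogeneic library, at 0.188 CPM, was under the highest syngeneic one, at 0.206 CPM. The log2 fold changes of 1.96 ± 0.84 in WT and 1.70 ± 0.82 in KO were not called (adjusted p = 0.0928 and 0.152) in the fit of 12 libraries. In WT it was called without syngeneic KO replicate 3 (adjusted p = 0.0408), with the 2 groups fitted alone (0.0276) and with a replicate block within them (0.0142).

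Lif (ENSMUSG00000034394, chromosome 11, 4257557 to 4272514, plus strand) encodes a cytokine that signals through LIFR and gp130. Syngeneic WT libraries held 11.7, 7.94 and 12.1 CPM, and allogeneic WT libraries 13.8, 19.2 and 19.4 CPM. In KO the values were 13.6, 13.7 and 9.24 CPM after syngeneic and 18, 10.5 and 7.12 CPM after allogeneic transplant. The WT groups did not overlap, while the allogeneic KO libraries reached both above and below the syngeneic KO libraries. The difference was 0.72 ± 0.30 in WT (adjusted p = 0.0837) and −0.04 ± 0.30 in KO (95% interval −0.69 to 0.61, adjusted p = 0.934), and neither was called. In WT it was called without allogeneic KO replicate 1 (adjusted p = 0.034) or replicate 3 (adjusted p = 0.0344), with the 2 groups fitted alone (0.0122) and with a replicate block within them (0.0378). Between genotypes Lif was at 0.21 ± 0.30 after syngeneic and −0.56 ± 0.30 after allogeneic transplant.

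The T cell growth factor Il2 (ENSMUSG00000027720, chromosome 3, 37120523 to 37125959, minus strand) was sparse in every group. The counts were 18, 29 and 17 in syngeneic WT, 29, 25 and 25 in syngeneic KO, 18, 20 and 17 in allogeneic WT and 8, 16 and 12 in allogeneic KO. Scaled to CPM, syngeneic KO (0.43 to 0.583) lay above allogeneic KO (0.174 to 0.267), and the WT groups overlapped. In KO, Il2 fell by 1.25 on the log2 scale (SE 0.38, 2.38-fold lower, adjusted p = 0.0283). The call was lost without syngeneic KO replicate 1 (adjusted p = 0.0725) or 3 (0.0596), without allogeneic KO replicate 1 (0.0773) or 3 (0.0768), with no filter on low counts (0.0585), with the 2 groups fitted alone (0.0816) and with a replicate block within them (0.155). In WT the difference was −0.42 ± 0.37 (95% interval −1.21 to 0.38). Between genotypes it was 0.50 ± 0.36 after syngeneic and −0.33 ± 0.38 after allogeneic transplant, neither called. The receptor subunit gene Il2ra was high in allogeneic libraries, as given with the receptors.

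Il21 (ENSMUSG00000027718, chromosome 3, 37222759 to 37232636, minus strand) lies 96.8 kb from Il2 and encodes a cytokine of helper T cells that acts on B cells and cytotoxic T cells; its promoter stands above, beside that of Csf1. Its values were 1.34, 1.52 and 2.3 CPM in syngeneic WT, 6.15, 8.11 and 2.8 CPM in syngeneic KO, 8.88, 6.57 and 8.86 CPM in allogeneic WT and 10.5, 9.47 and 5.24 CPM in allogeneic KO. Syngeneic WT was the low group, below every library of the other 3 groups, and syngeneic KO overlapped allogeneic KO. Il21 rose by 2.23 ± 0.38 from syngeneic to allogeneic in WT (4.71-fold, adjusted p = 0.00073). In KO the same comparison gave 0.56 ± 0.36 (95% interval −0.22 to 1.34, adjusted p = 0.282). After syngeneic transplant KO exceeded WT by 1.73 ± 0.38 (3.31-fold, 95% interval 0.91 to 2.54, adjusted p = 0.0243), with no overlap. That call was lost without syngeneic KO replicate 1 (adjusted p = 0.0642) or 2 (0.113) and without syngeneic WT replicate 1 (0.078) or 2 (0.131), and with the replicate numbers as a block over the 12 libraries (0.0505) or within the 2 groups (0.147), and with the 2 groups fitted alone (0.0935). After allogeneic transplant the genotypes differed by 0.05 ± 0.36 (95% interval −0.73 to 0.83), which was not called. The exons of Il21 share 469 bases with Gm12534 on the opposite strand, where reads of the 2 cannot be told apart.

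Il10 (ENSMUSG00000016529, chromosome 1, 131019845 to 131024974, plus strand) encodes the main anti-inflammatory cytokine of the set. It was at 0.467, 0.496 and 0.341 CPM in syngeneic WT, which are 30, 29 and 20 counts, and at 5.85, 6.54 and 3.92 CPM in allogeneic WT. Syngeneic KO held 2.57, 2.39 and 0.654 CPM and allogeneic KO 4.06, 3.49 and 1.56 CPM. As for Il21, syngeneic WT lay below every other library, and in both KO groups replicate 3 was the lowest. Il10 rose by 3.64 ± 0.51 in WT (12.5-fold, adjusted p = 0.000166), whereas in KO the difference was 0.69 ± 0.46 (95% interval −0.30 to 1.68, adjusted p = 0.293) and the groups overlapped. KO exceeded WT after syngeneic transplant by 2.10 ± 0.49 (4.29-fold, adjusted p = 0.0352). The call was lost without any 1 of the 3 syngeneic WT libraries (adjusted p = 0.0803, 0.128 and 0.165 for replicates 1 to 3), without syngeneic KO replicate 1 (0.112) or 2 (0.131), without allogeneic WT replicate 1 (0.0507), and with the 2 groups fitted alone (0.0957). It was kept with the replicate numbers as a block over the 12 libraries (0.00615). After allogeneic transplant the KO libraries were at 3.04 ± 1.31 CPM against 5.44 ± 1.36 in WT, a difference of −0.85 ± 0.45 (95% interval −1.82 to 0.13) that was not called.

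Whether the effect of Wapl loss differed between transplant types was tested as an interaction, the log2 fold change of KO over WT after allogeneic transplant minus that after syngeneic transplant. None of the 9 was called by edgeR, which called 0.477% of all genes and 0.0488% as lower. DESeq2 called 1, Il10, and 2 had an unadjusted p under 0.05, beside 6.2% of all genes. The estimates of all 9 were below 0, with a median of −0.73, against −0.03 for all genes, and the 9 share the same libraries. Without syngeneic KO replicate 1 the median of the 9 was −0.56, against 0.03 for all genes. The estimate of Tnf was then −0.06 and that of Csf2 −0.3. Il10 gave −2.95 ± 0.67 (95% interval −4.39 to −1.5, adjusted p = 0.0998). Its adjusted p was 0.00083 by DESeq2, 0.0237 with a replicate block over the 12 libraries and 0.0125 without syngeneic KO replicate 3. Without syngeneic KO replicate 1 the estimate was −2.63 (adjusted p = 0.185), and leaving out single libraries gave an adjusted p of up to 0.313. For Il21 the estimate was −1.68 ± 0.52 (unadjusted p = 0.00664, adjusted p = 0.334). The other 7 lay between −0.83 (Il2) and −0.27 (Il3), and leaving out 1 library turned the estimates of Ifng (0.17 without syngeneic KO replicate 1) and Il3 (up to 0.35) above 0. Markers of other cells differed beside these estimates: summed erythroid markers were at 2340 to 5490 CPM in syngeneic WT, 46.9 to 170 CPM in syngeneic KO, 27.1 to 120 CPM in allogeneic WT and 42.2 to 63.3 CPM in allogeneic KO, and the myeloid sums are those given with Tnf. Their part in the Il10 and Il21 results was not tested.

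Within groups, several of the cytokines deviated together from library to library. Deviations are log2 CPM of a library minus its group mean. Syngeneic KO replicate 3 lay below its group for Il3 (−1.80), Il10 (−1.25), Csf2 (−1.09), Ifng (−1.07) and Il21 (−0.88), and replicate 1 lay above it for Tnf (0.91), Ifng (0.88), Csf2 (0.74) and Il10 (0.68). Allogeneic KO replicate 3 was below its group mean for all 9, most for Il3 (−0.87) and Csf2 (−0.86). Allogeneic KO replicate 2 was above it for Csf2 (0.73) and Ifng (0.65). The libraries labelled KO thus held most of the spread, while Ifng deviated by no more than 0.13 in any WT library. Described over the 12 libraries without a test, the Pearson r of within-group deviations was 0.90 for Ifng with Csf2, 0.88 for Il21 with Csf2, 0.85 for Il3 with Il21 and 0.71 for Il10 with Il21. For Ifng with Tnf it was 0.82 within groups but −0.49 over all log2 CPM values, since the group means of Tnf and Ifng ran opposite ways. Csf1 gave the reverse pattern, with r of 0.94 with Csf2 and 0.85 with Ifng over all values and −0.05 and −0.38 within groups. These points share library scaling and sorting. In the same allogeneic KO libraries, replicates 1 to 3, summed CD4 lineage markers were at 577, 465 and 344 CPM and regulatory T cell markers at 670, 585 and 472 CPM; in syngeneic KO the CD4 sums were 358, 277 and 245 CPM and the regulatory T cell sums 237, 219 and 243 CPM. The CD4 sum was lowest in replicate 3 of both KO groups, the regulatory T cell sum in replicate 3 of allogeneic KO but not of syngeneic KO. Summed B cell markers were at 544, 1700 and 2810 CPM in replicates 1 to 3 of syngeneic KO and at 473, 984 and 3240 CPM in those of allogeneic KO, highest in replicate 3 of both. Y-linked transcripts summed to 32.3, 99.4 and 116 CPM in replicates 1 to 3 of syngeneic KO. In those of allogeneic KO they summed to 31.4, 70.1 and 138 CPM, so they too were highest in replicate 3. The part of these cells and of donor sex in the result was not tested.

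**Figure D4:**
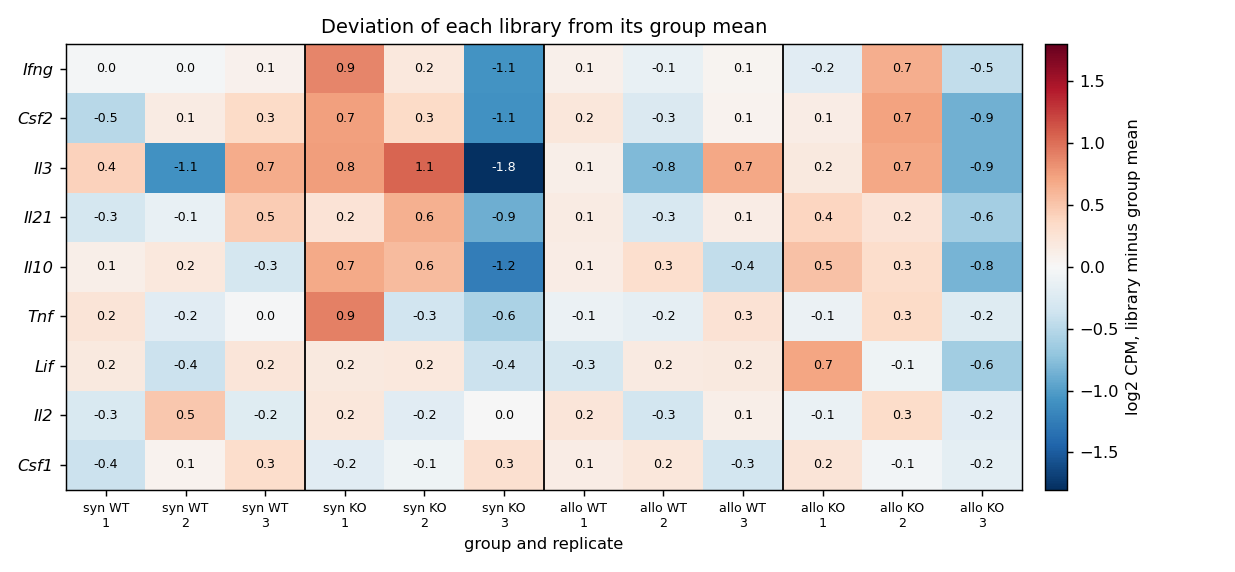
Heat map of each library's log2 CPM minus its group mean for the 9 cytokines (rows) in the 12 libraries (columns), red above and blue below the mean, with the value in each cell. Syngeneic KO replicate 3 is blue for Ifng, Csf2, Il3, Il21 and Il10, down to −1.80 for Il3, and allogeneic KO replicate 3 is blue in every row.

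Genes with the most similar profile were sought for 6 of the cytokines among 9457 tested genes with a mean of at least 5 CPM, by Pearson r of log2 CPM over the 12 libraries. For Csf1 these were Adam8 (r = 0.996), Marveld2 (0.995) and Slc2a8 (0.993). For Csf2 they were Glrx (0.988), Gas2 (0.987) and Casp4 (0.986), and for Ifng Copg2 (0.988), Mmgt2 (0.98) and Tgds (0.979). Tnf was closest to Ctss (0.964), which encodes the protease cathepsin S, then to Armcx2 (0.962) and Tctn1 (0.96). Il21 was closest to the chemokine gene Ccl3 (0.954), then to Rgs16 (0.942) and Arhgap10 (0.94). Il10 was closest to Tnfrsf4 (0.937), which encodes the costimulatory receptor OX40, then to Trp53i13 and Rtca (both 0.928). The r values are a description of these libraries and largely reflect the group means.

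The 3 nearest tested genes on each side of each cytokine gave 43 neighbours that are not members. Between transplant types in WT, 12 rose and 13 fell, and in KO 11 rose and 6 fell, beside the shares of all genes given above, with medians of −0.08 and 0.14. Beside Tnf, both lymphotoxin genes fell as well. Lta, 1.16 kb away, went from 9.16 ± 0.991 to 2.43 ± 0.504 CPM in WT (log2 fold change −1.92 ± 0.21, adjusted p = 1.99e-05) and changed by −2.42 ± 0.21 in KO (adjusted p = 4.91e-06). Ltb, 3.06 kb away, went from 206 ± 38.8 to 104 ± 9.75 CPM in WT (−0.98 ± 0.24, adjusted p = 0.00859) and changed by −0.99 ± 0.24 in KO (adjusted p = 0.0103). Of the other called neighbours of Tnf in WT, Aif1 changed by −2.33 ± 0.57 (adjusted p = 0.00727). Nfkbil1, 18.2 kb away, went the other way and rose by 0.77 ± 0.16 (adjusted p = 0.00327). Of the 6 neighbours of Csf1, Ahcyl1, 44.5 kb away, rose by 0.65 ± 0.10 in WT, and 4933431E20Rik, 128 kb away, by 1.82 ± 0.36 in WT (adjusted p = 0.0022) and 2.37 ± 0.38 in KO, against 4.98 for Csf1 itself in WT. Gstm5, 135 kb away, was at 0.10 ± 0.52 in WT and rose by 2.49 ± 0.56 in KO (adjusted p = 0.00671). The called neighbours of Ifng went both ways in WT: Mdm1, 272 kb away, rose by 0.57 ± 0.15 and Rap1b, 595 kb away, by 1.03 ± 0.22, while Dyrk2, 410 kb away, changed by −1.17 ± 0.15 and 4932442E05Rik, 415 kb away, by −1.60 ± 0.19 (adjusted p = 3.4e-05). Near Il10, Mapkapk2, 28.7 kb away, rose by 0.89 ± 0.13 in WT (adjusted p = 0.000246). The other tested neighbours of Il10 were all called lower in WT, against its rise. They were Fcmr (−2.58 ± 0.81), AA986860 (−1.63 ± 0.47), Pfkfb2 (−0.89 ± 0.20), Gm37084 (−0.77 ± 0.26) and Dyrk3 (−2.08 ± 0.34). After syngeneic transplant 4 of the 43 were lower in KO (AA986860, Dyrk3, Gstm5 and Mtmr3) and none higher, beside 2.63% and 0.743% of all genes. After allogeneic transplant none was called. Dyrk3, 102 kb from Il10, went against it: 15.3 ± 5.44 CPM in syngeneic WT and 1.68 ± 0.409 in syngeneic KO, a log2 fold change of −3.18 ± 0.36 (adjusted p = 0.000415). Dyrk3 is known from red cell precursors, and the erythroid marker sums given above moved the same way between these groups; their part in its result was not tested.

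Of the 17 receptor genes for the 9 cytokines, 6 rose and 7 fell between transplant types in WT (median −0.38). All genes gave 16.4% higher and 15.9% lower. In KO 6 rose and 5 fell (median 0.12), beside 13.2% and 11.2% of all genes. The 2 chains of the IFN gamma receptor went in opposite directions. Ifngr1, the binding chain, was at 143 ± 8.6 CPM in syngeneic and 360 ± 31.5 in allogeneic WT, and Ifngr2, the accessory chain, went from 16.1 ± 1.18 to 3.5 ± 0.442 CPM (log2 fold change −2.2 ± 0.21, adjusted p = 6.37e-06). In KO Ifngr2 changed by −2.43 ± 0.21 (adjusted p = 4.91e-06). Tnfrsf1b, the second TNF receptor, rose by 1.54 ± 0.12 in WT and 1.22 ± 0.12 in KO. Il2ra, the high-affinity chain of the IL-2 receptor, rose from 37.4 ± 4.43 to 171 ± 11.6 CPM in WT (2.2 ± 0.19, adjusted p = 2.44e-06) and by 1.86 ± 0.18 in KO. The transcript of its ligand, Il2, was not called in WT, and its fall in KO rests on few counts and lost its call in several settings. Il6st, which encodes the gp130 chain that LIF uses, fell from 241 ± 29.3 to 66.8 ± 12.2 CPM in WT (−1.85 ± 0.15, adjusted p = 1.94e-06) and changed by −1.83 ± 0.15 in KO. The CSF1 receptor gene Csf1r, a myeloid gene, stood at 12.8 ± 7.53 CPM in syngeneic WT and 6.08 ± 5.68 in syngeneic KO, and at 1.74 ± 0.406 and 1.79 ± 0.687 in their allogeneic counterparts, low where Csf1 was high. No receptor was called between genotypes by edgeR. After syngeneic transplant 4 of the 17 reached an unadjusted p under 0.05, beside 14% of all genes, and DESeq2 called 1 higher and 1 lower; the smallest p values were those of Il3ra (0.55 ± 0.14, adjusted p = 0.0551) and Csf2rb2 (−2.13 ± 0.67, adjusted p = 0.146). After allogeneic transplant 1 had an unadjusted p under 0.05 (Ifngr2, −0.64 ± 0.21, adjusted p = 0.942), beside 4.18% of all genes, and DESeq2 called none.

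Among 29 transcription factors known to act on cytokine genes, 18 rose and 2 fell between transplant types in WT (median 0.48). All genes gave 16.4% higher and 15.9% lower. In KO 12 rose and 2 fell (median 0.31), or 8 and 3 without syngeneic KO replicate 3. The shares of all genes in KO were 13.2% and 11.2% over the 12 libraries. Maf, which activates Il10 and Il21, went from 20.2 ± 2.58 to 157 ± 20.7 CPM in WT (2.95 ± 0.17, adjusted p = 1.03e-07) and from 30.1 ± 2.42 to 97.2 ± 19 CPM in KO (1.69 ± 0.16). Bhlhe40, needed for Csf2 expression, rose by 2.68 ± 0.16 in WT and 2.13 ± 0.15 in KO, and Prdm1, which encodes BLIMP-1, by 2.82 ± 0.18 and 1.87 ± 0.18. Eomes, a factor of cytotoxic cells, changed by −1.14 ± 0.16 in KO, and in WT went from 152 ± 20.2 to 63.5 ± 13.5 CPM. Of the AP-1 genes in the list, Fos, Jun, Junb, Fosl2 and the sparse Batf3 were lower by their means in allogeneic WT. With 2 of the 29 factors called lower, most of these differences were not called. Fos went from 176 ± 33.4 to 29.4 ± 5.11 CPM, Jun from 191 ± 40.4 to 45.3 ± 4.5 and Junb from 380 ± 65.3 to 189 ± 14.2. Fosl2 went from 67.3 ± 1.26 to 58.4 ± 11.5 CPM and Batf3 from 0.267 ± 0.123 to 0.0774 ± 0.0142. In syngeneic KO, Fos ran from 25 to 426 CPM. Batf was higher, going from 27 ± 4.57 to 122 ± 16 CPM. After syngeneic transplant Irf4 (0.76 ± 0.12, adjusted p = 0.00299) and Prdm1 (1.03 ± 0.17, adjusted p = 0.00536) were higher in KO, and no factor was lower. Over all genes 0.743% were called higher and 2.63% lower. Of the 29, 9 had an unadjusted p under 0.05, beside 14% of all genes. Both directions had 2 calls among the 29 without syngeneic KO replicate 1. In the same 6 libraries Irf4 stood at 29.8 ± 0.987 CPM in WT and 50.6 ± 5.42 in KO. After allogeneic transplant none was called by edgeR, and 3 reached an unadjusted p under 0.05, beside 4.18% of all genes. DESeq2 called 2 lower. Maf was at −0.69 ± 0.16 (adjusted p = 0.307) and Egr2 at −0.62 ± 0.16 (adjusted p = 0.437). The interaction was called for these 2 factors alone of the 29 by edgeR, at −1.26 ± 0.22 for Maf (adjusted p = 0.0316) and −1.20 ± 0.22 for Egr2 (adjusted p = 0.0347). Over all genes edgeR called 0.477%, and 0.0488% as lower. DESeq2 called 4 of the 29 lower in this contrast. Both edgeR calls were lost without syngeneic KO replicate 1 (adjusted p = 0.0707 for Maf and 0.0662 for Egr2).

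Downstream of IFN gamma, 23 response genes gave 4 higher and 5 lower between transplant types in WT (median −0.26). All genes gave 16.4% higher and 15.9% lower. In KO 1 was higher and 4 were lower (median −0.38), beside 13.2% and 11.2% of all genes. The KO counts were 5 and 3 without syngeneic KO replicate 1, and 0 and 11 without replicate 3. In WT, Tap1, a peptide transporter gene, rose by 0.65 ± 0.14 (adjusted p = 0.0032), while the guanylate-binding protein gene Gbp6 changed by −0.99 ± 0.22 (adjusted p = 0.00418) and the MHC class II activator Ciita by −1.66 ± 0.39 (adjusted p = 0.00591). The GTPase gene Tgtp1 changed by −1.74 ± 0.36, a value that is uncertain because of its near-identical copy Tgtp2. Summed, the 23 were at 2400 to 3060 CPM in syngeneic WT and 2650 to 2740 CPM in allogeneic WT, ranges that overlap, beside the 4.06-fold higher Ifng. Ciita was the 1 gene of the list called between genotypes after syngeneic transplant (−1.80 ± 0.39, adjusted p = 0.024, and 0.0798 without syngeneic KO replicate 1), in the groups in which summed myeloid markers were lower in KO. Over all genes 2.63% were called lower there. Of the 23, 3 had an unadjusted p under 0.05, beside 14% of all genes. After allogeneic transplant none of the 23 was called and DESeq2 called none. An unadjusted p under 0.05 was reached by 1, beside 4.18% of all genes. Irf8 had the smallest p, at 0.44 ± 0.17.

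Among 14 genes listed as targets of STAT5, through which IL-2 family cytokines act, 6 rose and 4 fell between transplant types in WT. All genes gave 16.4% higher and 15.9% lower. In KO 5 rose and 5 fell, beside 13.2% and 11.2% of all genes. Gzmb, the gene of the killer protease granzyme B, rose by 4.03 ± 0.34 in WT and 3.47 ± 0.33 in KO, and the cell cycle gene Ccnd2 changed by −1.29 ± 0.15 and −1.62 ± 0.15. After syngeneic transplant Cdkn1a, a cell cycle inhibitor gene, was higher in KO (1.02 ± 0.23, adjusted p = 0.0309), a call lost with a replicate block (adjusted p = 0.0559) and without syngeneic KO replicate 1 (0.0701). Over all genes 0.743% were called higher there. Of the 14, 4 had an unadjusted p under 0.05, beside 14% of all genes. After allogeneic transplant none was called by edgeR or DESeq2, and 5 reached an unadjusted p under 0.05, beside 4.18% of all genes. Cish, a feedback inhibitor of STAT5, had the smallest p, at −0.51 ± 0.13 (adjusted p = 0.443).

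The 12 genes listed as factors of cytokine mRNA decay gave 1 higher and 2 lower in both comparisons of transplant types. All genes gave 16.4% higher and 15.9% lower in WT, and 13.2% and 11.2% in KO. Zfp36, which encodes the decay factor tristetraprolin and acts through AU-rich stretches such as those printed for Tnf and Csf2, was at 337 ± 43.4 CPM in syngeneic and 125 ± 20.9 CPM in allogeneic WT (−1.43 ± 0.35, adjusted p = 0.00897). In KO it changed by −1.20 ± 0.35 (adjusted p = 0.0266, and 0.0567 without syngeneic KO replicate 1). Its relative Zfp36l1 changed by −0.84 ± 0.14 in WT and −0.80 ± 0.14 in KO, and the RNase gene Zc3h12d rose by 0.83 ± 0.10 and 0.57 ± 0.10. Between genotypes none of the 12 was called by edgeR or DESeq2 after either transplant. After syngeneic transplant 2 had an unadjusted p under 0.05 (Zfp36l2, −0.55 ± 0.20, and Zc3h12d, 0.28 ± 0.10), beside 14% of all genes, and after allogeneic transplant 1 (Zc3h12a, −0.39 ± 0.16), beside 4.18%. Of 4 tested genes that cut TNF and CSF1 free from the membrane or carry the protease there, Rhbdf2 (1.11 ± 0.13) and Adam17 (0.45 ± 0.09) rose in WT, and Rhbdf2, Adam17 and Adam10 (0.46 ± 0.12) in KO. None was called between genotypes by edgeR or DESeq2, with 1 at an unadjusted p under 0.05 after syngeneic and 0 after allogeneic transplant, beside 14% and 4.18% of all genes.

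Other T cell cytokine, chemokine and granule genes, 30 of them tested, gave 14 higher and 2 lower between transplant types in WT (median 0.57). All genes gave 16.4% higher and 15.9% lower. In KO 11 were higher and 2 lower (median 0.34), beside 13.2% and 11.2% of all genes. Gzma, the granzyme A gene, rose by 5.78 ± 0.39 in WT and 5.69 ± 0.39 in KO, and Fasl, the death ligand gene, by 2.08 ± 0.20 and 2.09 ± 0.20. The type 2 cytokine gene Il13 rose by 5.81 ± 0.47 in WT, from 0.137 ± 0.0616 to 7.85 ± 0.975 CPM, and by 3.65 ± 0.42 in KO, from 0.29 ± 0.0641 to 3.69 ± 1.75 CPM. Like Il10, it was higher in KO than WT after syngeneic and lower after allogeneic transplant by its means, with an interaction of −2.16 ± 0.60 that was not called (adjusted p = 0.23). After syngeneic transplant 3 were higher in KO and none lower: Ccl1 (1.65 ± 0.34, adjusted p = 0.0175), Tnfsf9 (1.02 ± 0.22, adjusted p = 0.0211), the ligand of 4-1BB, and Ccl3 (1.43 ± 0.35, adjusted p = 0.0443). Over all genes 0.743% were called higher and 2.63% lower. Of the 30, 11 had an unadjusted p under 0.05, beside 14% of all genes. Ccl3 lost its call without syngeneic KO replicate 1 (adjusted p = 0.13) and with a replicate block over the 12 libraries (0.0924), and each of the 3 lost it without syngeneic KO replicate 2 or syngeneic WT replicate 2. After allogeneic transplant none of the 30 was called and DESeq2 called none. An unadjusted p under 0.05 was reached by 3, beside 4.18% of all genes. The smallest p was that of Tnfsf4 (1.15 ± 0.35, adjusted p = 0.793).

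Summed cell type markers were set beside the rises from syngeneic to allogeneic transplant. Summed CD4 lineage markers were at 235 to 320 CPM in syngeneic WT and 557 to 631 CPM in allogeneic WT, and CD8 lineage markers at 995 to 1420 and 942 to 1080 CPM. By gene, all 3 CD4 markers were called higher, and of the 3 CD8 markers 1 was higher and 1 lower, beside 16.4% and 15.9% of all genes. The CD8 sum includes Runx3, at 171 ± 21.2 and 248 ± 37.4 CPM. Regulatory T cell markers summed to 164 to 217 and 548 to 595 CPM, and Nrp1, Il2ra, Ctla4 and Tnfrsf18 were called higher, while their defining factor Foxp3 was at 24.2 ± 3.45 and 23.9 ± 4.47 CPM. NK cell markers summed to 252 to 315 and 1510 to 1980 CPM, of which Gzma made up most in allogeneic WT, at 1140 ± 223 CPM. By gene, 5 of the 8 NK markers were higher and 3 lower in allogeneic WT: Klra4 was at 1.88 ± 0.421 and 0.0194 ± 0.0204 CPM, Klra9 at 0.441 ± 0.142 and 0.00678 ± 0.0118 CPM, and Klra8 at 0.495 ± 0.154 CPM and at 0 in all 3 allogeneic WT libraries. The part of these cells in the cytokine results was not tested.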

How the data were processed

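Total RNA-seq libraries of sorted donor T cells were analysed. The authors deposited expected counts per gene, unscaled and for the most part whole numbers. Per the submitters' processing notes, the build was GRCm38 and the tools included Cuffdiff 2.2.1, Cufflinks, Bowtie2 2.2.1 and TopHat2 2.0.13; the counter, its annotation and its strand setting are not given in the sources used here. Of 18 samples in the labels, 12 had columns that matched by name; 6 further columns, with a prefix, were not used, and naive samples were not analysed here. Groups follow the labels' transplant type.

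Counts were rounded and fitted in 1 edgeR 4.0.16 quasi-likelihood model (R 4.3.3, limma 3.58.1) with 1 mean per group, TMM scaling, filterByExpr (count minimum 10) and robust dispersion, giving 8 residual degrees of freedom and a biological coefficient of variation of 0.249. Tests are two-sided, and Benjamini-Hochberg adjusted p values under 0.05 over 18447 genes are calls. SE is the log2 fold change over the square root of F. CPM use TMM-adjusted totals; CPM per kb divide by the exon bases of GENCODE M21 (GRCm38). The pipeline was tested on simulated counts.

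The 9 genes, the gene lists and the rule for named genes were chosen with earlier results of these data known. The rule names all 9 members, up to 4 called genes of each list with the smallest p (where none is called, up to 2), the 3 most alike genes and called neighbours; of these, some are summarised by counts only, and levels of Foxp3, Ifngr1, Csf1r, Gzma and Klra4, Klra8 and Klra9 among markers and receptors were added after their values were seen. Levels of the AP-1 genes among the transcription factors were also given outside the rule. Same-numbered libraries deviated together in syngeneic WT and KO (r from 0.17 to 0.545, 3 of 3 pairs above 0.1), while unlike-numbered ones gave −0.501 to 0.363. Of 3 same-numbered pairs, 2 were above 0.1 between transplant types in KO, 1 between genotypes after allogeneic transplant and 0 between transplant types in WT. The labels state no pairing and the main fit used none, so replicate blocks were fitted only as alternatives. Alternatives were DESeq2 1.42.0, RLE size factors, no filter, no ribosomal RNA genes, replicate blocks, the 2 compared groups alone and leaving out each library.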

Additional observations from a re-analysis of the deposited data

Results flagged for a closer look

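For 3 genes named in the report the difference between KO and WT libraries was unlike between transplant types by the interaction test of edgeR. Maf gave −1.26 ± 0.22 on the log2 scale (adjusted p = 0.0316): KO exceeded WT after syngeneic transplant, at 30.1 ± 2.42 against 20.2 ± 2.58 CPM, and was below it after allogeneic transplant, at 97.2 ± 19 against 157 ± 20.7 CPM. The estimate ran from −1.38 to −1.11 over the settings tried. Its call was lost without syngeneic WT replicate 3 (adjusted p = 0.105), syngeneic KO replicate 1 (0.0707) or 2 (0.0686), allogeneic WT replicate 1 (0.0629) or 2 (0.0758), or allogeneic KO replicate 2 (0.0618). Egr2 gave −1.20 ± 0.22 (adjusted p = 0.0347), with 15.7 ± 0.226 against 10.4 ± 0.973 CPM after syngeneic and 15.7 ± 2.55 against 24 ± 3.97 CPM after allogeneic transplant. Its call was kept without syngeneic WT replicate 1 (adjusted p = 0.0202), allogeneic WT replicate 2 (0.0263) or allogeneic KO replicate 1 (0.0467), and was lost without any other single library (0.0589 to 0.123). DESeq2 called both (adjusted p = 8.22e-05 and 6.69e-05). Dyrk3, a neighbour of Il10, gave 3.22 ± 0.49 (adjusted p = 0.0132), because KO was lower than WT after syngeneic transplant and not after allogeneic transplant (3.71 ± 0.401 against 3.61 ± 1.7 CPM). No setting tried ended this call. In the same contrast 8 of 11 erythroid markers were called higher (median 5.92), beside 0.428% of all genes. Their part in the Dyrk3 result was not tested, and donor sex went with genotype for all 3 genes.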

How the results depend on the processing

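With 3 libraries a group, single libraries decided several calls. The 2 cytokines called after syngeneic transplant became 0 to 2 when 1 library was left out, 0 with the 2 compared groups alone, and 1 with a replicate block over the 12 libraries or within the 2 groups. The 5 called in WT between transplant types became 5 to 7 without 1 library and 8 with the 2 groups alone or with a block within them; the 5 in KO became 4 to 5 without 1 library, 3 with the 2 groups alone and 4 with a block within them. The interaction's 0 became 0 to 1 without 1 library, and 1 by DESeq2 or with a replicate block over the 12 libraries. Over all genes, the 622 called after syngeneic transplant became 260 to 742 without 1 library, 1027 by DESeq2, 349 with the 2 groups alone and 1287 with a replicate block within them; 22% of the 622 were higher, and 12.4% without syngeneic WT replicate 1. The 10 called after allogeneic transplant became 3 to 15, 75 by DESeq2 (40% higher, against 80%) and 6 with the 2 groups alone. The 5955 in WT became 4110 to 6899 without 1 library, the 4500 in KO 3062 to 5397 without 1 library, 2669 with the 2 groups alone and 2266 with a block within them, and the interaction's 88 became 28 to 242, and 296 by DESeq2. Signs turned only for log2 fold changes that were not called. Leaving out 1 library gave, after syngeneic transplant, −0.18 to 0.16 for Csf1, −0.13 to 1.05 for Il3 and −0.06 to 0.84 for Tnf. After allogeneic transplant it gave −0.34 to 0.43 for Csf2, −0.09 to 0.53 for Ifng, −0.14 to 0.3 for Il21, −0.24 to 0.66 for Il3 and −0.31 to 0.02 for Tnf, and a replicate block gave −0.01 (12 libraries) and −0.02 (within the groups) for Csf2. The interaction ran from −0.75 to 0.17 for Ifng and −0.83 to 0.35 for Il3, and Lif in KO between transplant types from −0.47 to 0.23. The causes were not tested. Il2, Il3 and, in syngeneic WT, Il10 and Csf2 rest on few counts, which limits what the depth can show.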
